A study of Xenopus laevis with 27 samples.

Results

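Ion channels and neurotransmitter receptors are the proteins that carry electrical signals across cell membranes. Here they were taken as all probe sets whose gene symbol in the array platform begins with kcn, cacn, gabr, gria, grin, grik, glra, glrb or chrn, or with scn and a digit. The rule itself uses no expression value, but it was chosen with earlier results of these data known. The rule found 73 probe sets, covering 60 gene symbols, among the 32635 probe sets of the array, which carry 11303 symbols in all. No glycine receptor symbol (glra, glrb) was among them. A single probe set matched 2 symbols and is left without a name, and grina.L was caught by its spelling alone, since grina encodes a membrane protein that is not a subunit of a glutamate receptor.

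RNA came from whole Xenopus laevis embryos, 10 being homogenized for each stage and construct. Each embryo had received 1.5 ng of capped RNA in 1 of its first 2 cells, so that the RNA was delivered to 1 side. NICD embryos received the intracellular domain of Notch (labelled ICD), which switches Notch signaling on; DBM embryos received a form of Suppressor of Hairless that cannot bind DNA, which suppresses Notch signaling; GFP embryos received RNA for the green fluorescent protein as tracer and injection control. Each construct was taken at stage 18 (late neurula), stage 28 (tailbud) and stage 38 (swimming tadpole), which makes 9 groups of 3 arrays; the strain was not given in the sources used here, nor whether the 3 arrays of a group received RNA of separate pools or clutches, so p-values measure the spread between arrays, which may be technical.

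Channels that open on a change of voltage shape the action potential: sodium and calcium channels let positive charge in, potassium channels let it out and restore the resting state. Receptors of the nicotinic, glutamate and GABA-A kinds are channels opened by a transmitter, in muscle at the neuromuscular junction and in the nervous system at synapses between neurons. Pore subunits form the channel itself, while auxiliary subunits set its gating and its number at the membrane. Notch signaling holds neural precursor cells back from becoming neurons, and in the frog epidermis it also limits the number of ionocytes, the ion-transporting cells of the skin.

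Levels are log2 values after RMA, the summary of the probes of a probe set after normalization across arrays, and a difference of 1 on this scale is a doubling. Array medians ranged from 6.83 to 6.99 and single values from 2.82 to 15.4. Many of the channel and receptor probe sets were dim. Their median level was 5.21, against 6.95 for all probe sets, and 34 of the 73 lay under the 25th percentile of all probe sets (5.13), where small changes are compressed, while 8 lay above the 75th (8.70). All tests came from 1 limma model of the 27 arrays with Benjamini-Hochberg adjustment over all 32635 probe sets, a probe set passed at an adjusted p below 0.05, and errors after a difference are standard errors from that model. Arrays with the same replicate number deviated together, so a second fit that takes the number within a stage as a block is given beside the results it changes. At stage 18 some arrays with different numbers did so as well, so the block is less sure there. In RNA of whole embryos, fewer cells of a type and less RNA per cell cannot be told apart.

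Between stages of the GFP embryos, many channel and receptor genes changed, and more of them rose than fell. From stage 18 to stage 28, 28 of the 73 probe sets rose (38.4%) and 9 fell (12.3%), where 22% of all probe sets rose and 29.4% fell. From stage 28 to stage 38, 20 rose (27.4%) and 13 fell (17.8%), against 18.8% and 22.4% of all probe sets. Over the whole span, stage 38 against stage 18, 38 rose (52.1%) and 13 fell (17.8%), against 26.8% and 37% of all probe sets. The median difference over that span was 0.31 for the channel and receptor probe sets and -0.12 for all probe sets. Of the channel and receptor probe sets that passed over it, 74.5% were higher, or 68% after all arrays were set to a common median. They were dimmer than the array as a whole, and the part of this in the shares was not tested. By both steps, 10 probe sets rose at each, 11 rose only at the first, 7 rose and then fell, 10 rose only at the second, 4 fell at each, 5 fell only at the first, 2 fell only at the second, and 24 passed at neither.

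**Figure D1:**
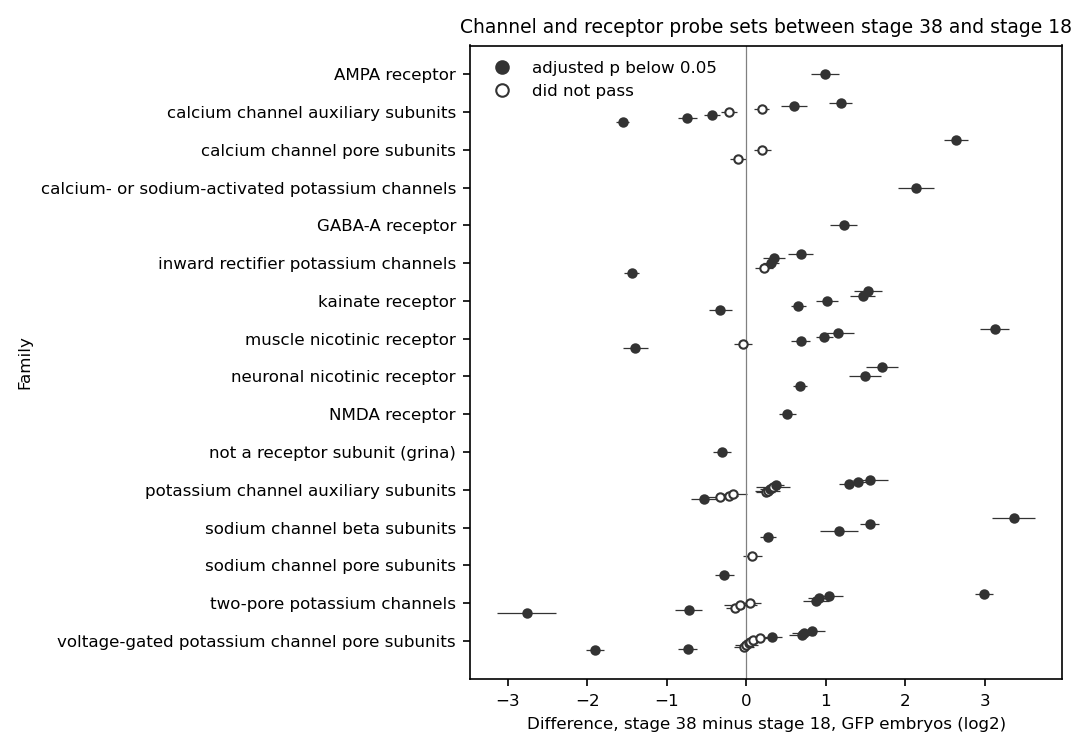
Differences of the 73 channel and receptor probe sets between stage 38 and stage 18 in GFP embryos (log2, stage 38 minus stage 18; bars are standard errors), one row per family; filled points passed and open points did not. The 38 filled points right of 0 include the AMPA, NMDA and GABA-A receptors, which had 1 probe set each. They also include all 3 of the neuronal nicotinic receptor and all 4 of the sodium channel beta subunits. The largest difference, 3.36, was that of scn4b.L.

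The nicotinic acetylcholine receptor of muscle is the channel through which motor nerves excite muscle fibers, and it is built from alpha1, beta1 and delta subunits with either gamma in young muscle or epsilon in mature muscle. Of its 6 probe sets, 5 rose from stage 18 to stage 28, where 22% of all probe sets rose. chrng.L, the gamma subunit, had 8.99, 9.41 and 9.38 at stage 18, 10.67, 10.04 and 10.16 at stage 28, and 8.06, 7.83 and 7.71 at stage 38. chrne.L, the epsilon subunit, had 6.43, 6.47 and 6.60 at stage 18, 8.79, 8.47 and 8.97 at stage 28, and 9.32, 9.94 and 9.60 at stage 38. The courses of these subunits parted after stage 28. chrng.L had risen by 1.03 ± 0.15 (adjusted p = 6.19e-06) and then fell by 2.42 ± 0.15, or 5.37-fold (adjusted p = 3.19e-11), to values below all of its stage 18 values. chrne.L rose by 2.24 ± 0.18 (adjusted p = 9.68e-10) and again by 0.88 ± 0.18 (adjusted p = 0.000467), and over both steps it gained 3.12, or 8.72-fold.

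The alpha1 and delta subunits of this receptor rose to stage 28 as well. A fall after it passed for chrna1.L and chrnd.L only, and was lost for each when certain arrays were left out. The probe set of beta1 passed at no step. chrna1.L, an alpha1 subunit that binds acetylcholine, had 9.67, 9.55 and 9.57 at stage 18, 11.49, 11.10 and 11.31 at stage 28, and 10.82, 11.18 and 10.27 at stage 38. It rose by 1.70 ± 0.19 (adjusted p = 1.19e-07) and fell back by 0.54 ± 0.19 (adjusted p = 0.0252). Without GFP stage 38 replicate 3 that fall was 0.30 (adjusted p = 0.213), and its call was also lost without replicate 1 or 3 of stage 28. chrnd.L, the delta subunit, rose by 1.09 (adjusted p = 8.28e-08) and fell by 0.41 (adjusted p = 0.00809), a fall that did not pass without GFP stage 38 replicate 3 (adjusted p = 0.0685). chrna1.2.L, a further alpha1 gene, rose by 1.17 (adjusted p = 3.22e-09), and its difference of -0.19 at the next step did not pass (adjusted p = 0.159). The probe set for chrnb1.L, the beta1 subunit, stayed between 4.72 and 5.26 on the 9 GFP arrays and passed at no step. It was dim, with a mean of 5.13 over all arrays, at about the 25th percentile of all probe sets, so a change may not show.

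Muscle excitation is linked to contraction by a calcium channel whose pore subunit is encoded by cacna1s. cacna1s.S had 6.26, 6.23 and 6.16 at stage 18, 8.82 to 9.01 at stage 28, and 8.84, 9.07 and 8.65 at stage 38. It rose by 2.73 ± 0.16, or 6.62-fold (adjusted p = 2.76e-12), the largest difference of any channel or receptor probe set at that step, and then kept its level. cacnb1.S, the beta subunit that joins this channel in muscle, rose on both of its probe sets, by 0.48 and 1.17, the smaller of which was lost without GFP stage 18 replicate 1 or stage 28 replicate 3. The gamma subunit of the same channel, cacng1.L, took another course: it had 10.66, 10.96 and 10.96 at stage 18, 11.14, 10.94 and 10.91 at stage 28 and 9.26, 9.36 and 9.30 at stage 38, a fall of 1.69 ± 0.09 after stage 28 (adjusted p = 8.93e-13). On the same arrays the skeletal muscle markers (16 probe sets of 8 genes, among them ckm.L and tnnt3.S) averaged between 9.94 and 10.15 at stage 18, between 11.38 and 11.41 at stage 28 and between 11.85 and 12.06 at stage 38. Of the 16, 14 were higher and 2 lower at stage 38 than at stage 18, where 26.8% of all probe sets were higher and 37% lower. The part of these markers in the changes of the muscle channel genes was not tested.

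**Figure D2:**
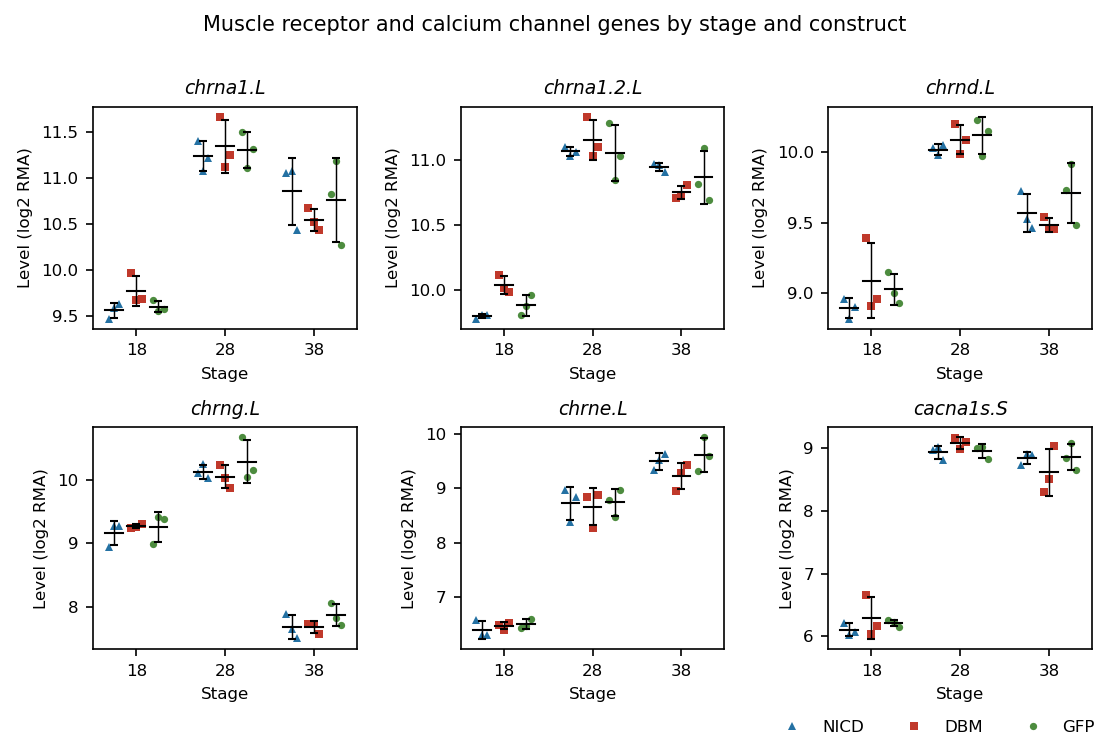
Levels (log2 RMA) of 5 muscle nicotinic receptor genes and the calcium channel gene cacna1s.S at stages 18, 28 and 38 in NICD, DBM and GFP embryos; points are arrays, black lines the means and bars the SD of 3 arrays. Over all constructs the arrays of stage 38 lay at 7.50 to 8.06 for chrng.L, below every stage 18 array, and at 8.96 to 9.94 for chrne.L, above every stage 18 array.

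Receptor genes of neurons rose at 1 or both of the steps, though a probe set of grik2.S fell. The 3 neuronal nicotinic subunits all rose from stage 28 to stage 38, where 18.8% of all probe sets rose. chrnb2.S, a beta subunit of many brain nicotinic receptors, had 5.47, 5.58 and 5.31 at stage 18, 5.44, 5.49 and 5.74 at stage 28, and 7.23, 6.68 and 6.92 at stage 38, and its rise after stage 28 was 1.39 ± 0.21 (adjusted p = 1.02e-05). chrna5.L, an accessory alpha subunit, rose by 0.63 (adjusted p = 0.00967) to stage 28 and by 1.07 (adjusted p = 0.000113) to stage 38. chrnb3.L rose by 0.27 and 0.40 at these steps (adjusted p = 0.0139 and 0.001), the first of which was lost without GFP stage 18 replicate 2 or stage 28 replicate 1.

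Glutamate receptors carry most fast excitation in the central nervous system. gria2.S, a subunit of the AMPA receptor that makes it nearly impermeable to calcium, lay at 5.27 to 5.59 at stage 18 and 5.26 to 5.58 at stage 28 and at 6.43 to 6.46 at stage 38, a rise of 1.06 ± 0.18 (adjusted p = 3.99e-05). grin1.L, the subunit that every NMDA receptor needs, lay at 5.08 to 5.20, 4.95 to 5.20 and 5.48 to 5.83, and rose by 0.61 (adjusted p = 5.69e-05) at the same step. Each was the only probe set of its receptor, and neither had passed from stage 18 to stage 28. The kainate receptor probe sets, named grik5-like.1 for both gene copies, rose after stage 28 by 0.55 and 1.55 for the .L copy (probe sets Xl2.1198.1.S1_at and Xl2.1198.1.S2_at) and by 1.08 for the .S copy. The kainate subunit grik2.S took another course on probe set Xl2.21633.1.S1_at, rising by 0.80 up to stage 28 (adjusted p = 4.15e-05) and by 1.01 over the whole span (adjusted p = 9.67e-07), while its difference of 0.21 after stage 28 did not pass. Its other probe set, Xl2.21633.1.A1_at, was lower at stage 28 than at stage 18 by 0.40 (adjusted p = 0.0219, and up to 0.145 with 1 array left out). Over the whole span it was lower by 0.33 with an adjusted p of 0.0494, which became 0.0621 with the block.

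GABA-A receptors are the main inhibitory receptors of the brain, and gabra2.S, an alpha subunit, was their only probe set. Its values were 4.06, 4.34 and 4.21 at stage 18, 4.58, 4.50 and 4.80 at stage 28, and 5.37, 5.69 and 5.22 at stage 38. The 3 stages did not overlap, and gabra2.S rose by 0.42 (adjusted p = 0.0376) and then by 0.80 (adjusted p = 0.000406). The first of these calls was lost without any of 4 arrays (adjusted p up to 0.145). The neuron markers (14 probe sets of 9 genes, such as snap25.L and nefm.L) averaged 7.01 to 7.33 on the GFP arrays of stage 18, 8.78 to 8.95 on those of stage 28 and 9.93 to 10.02 on those of stage 38; 11 of the 14 were higher and 1 was lower at stage 38 than at stage 18. Of all probe sets, 26.8% were higher and 37% lower over this span. The part of the neuron markers in the changes of the receptor genes was not tested.

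**Figure D3:**
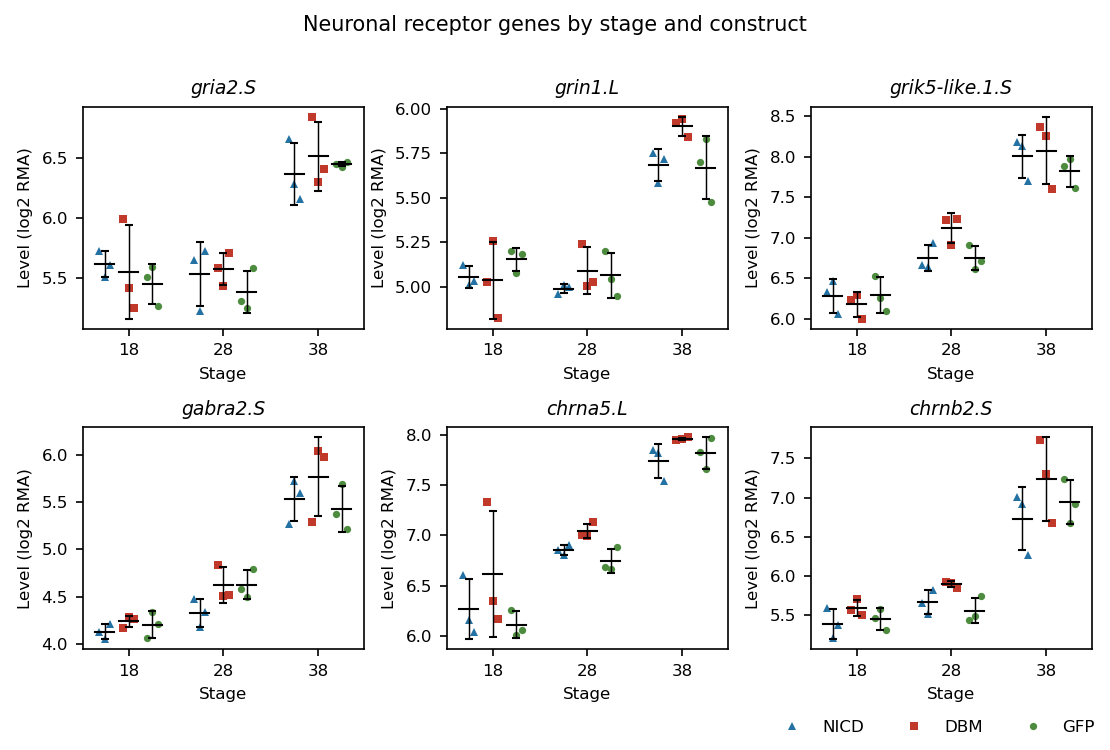
Levels (log2 RMA) of 6 receptor genes of neurons at stages 18, 28 and 38 in NICD, DBM and GFP embryos; points are arrays, black lines the means and bars the SD of 3 arrays. gria2.S and chrnb2.S differ little between stages 18 and 28 in GFP embryos and lie highest at stage 38, at 6.43 to 6.46 and 6.68 to 7.23.

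Genes that act at the same synapses were described from a list of transmitter enzymes, transporters and receptor anchors, of which 10 of 26 genes had a probe set. Of their 14 probe sets, 10 were higher and 0 lower at stage 38 than at stage 18 in GFP embryos, with a median difference of 1.25. Over all probe sets, 26.8% were higher and 37% lower, with a median of -0.12. slc32a1.S, the vesicular transporter for GABA and glycine, rose by 4.81; slc17a7.S, a vesicular glutamate transporter, by 2.67; gphn.L, the scaffold of inhibitory receptors, by 2.05; and rapsn.S, which clusters the nicotinic receptor at the neuromuscular junction, by 2.09. In a list of other channels and metabotropic receptors, 9 of 37 genes had a probe set, and 7 of 14 probe sets were higher and 1, clcn5.L, was lower. The serotonin-gated channel htr3a.L rose by 2.67 and gabbr2.S, a subunit of the metabotropic GABA-B receptor, by 1.57.

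Voltage-gated sodium channels pair a pore with beta subunits, which speed gating and anchor the channel. All 4 beta subunit probe sets, of 3 genes, were higher at stage 38 than at stage 18, as were 26.8% of all probe sets. scn4b.L, on probe set Xl2.28569.1.S1_a_at, had 4.50, 5.71 and 5.30 at stage 18, 6.66, 6.52 and 5.87 at stage 28, and 8.27, 8.69 and 8.63 at stage 38. It rose at both steps and by 3.36 ± 0.27 in all, or 10.3-fold (adjusted p = 2.66e-10), but the second scn4b.L probe set, which lay at 4.18 to 4.64 throughout, rose by 0.27 (adjusted p = 0.0247, and up to 0.0978 with 1 array left out), so the size of the change depends on the probe set. scn2b.L rose by 1.55 (adjusted p = 1.05e-10), passing at both steps (the first not without GFP stage 28 replicate 1, adjusted p = 0.0784), and scn3b.L by 1.17 (adjusted p = 0.00024), passing at the first step alone. The probe sets of scn1a.S, the only pore subunit measured, lay at 4.00 to 4.78, and 1 of the 2 was lower at stage 38 by 0.27 with an adjusted p of 0.049, or 0.0869 with the block.

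The two-pore potassium channels, which set the resting potential as leak channels, moved in opposite directions. kcnk1.L rose at each step, with 6.82, 7.02 and 7.21 at stage 18, 8.65, 8.80 and 8.78 at stage 28, and 10.02, 10.17 and 9.84 at stage 38, a gain of 2.99 ± 0.11 or 7.96-fold (adjusted p = 6.46e-16). Its .S copy, kcnk1.S, rose by 0.59 to stage 28 (adjusted p = 0.0225, and up to 0.1 with 1 array left out), fell by 0.67 to stage 38 (adjusted p = 0.0137, a call lost without GFP stage 28 replicate 2 or stage 38 replicate 3) and over the whole span differed by -0.08 (adjusted p = 0.769). kcnk7.L had 6.87, 6.31 and 6.19 at stage 18, 5.50, 4.79 and 4.08 at stage 28, and 3.66, 3.83 and 3.60 at stage 38. It fell by 2.76 ± 0.37, or 6.77-fold (adjusted p = 8.77e-07) and at stage 38 lay under the 25th percentile of all probe sets. The call at the second step was lost without GFP stage 28 replicate 1, stage 38 replicate 1 or stage 38 replicate 3. kcnk9.L, kcnk5.S on both probe sets, and kcnk6.L also passed over the whole span, at 1.04, 0.88, 0.91 and -0.72.

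Among other potassium channels, kcnma1.L, the large-conductance channel opened by calcium and voltage together, rose by 1.68 ± 0.23 to stage 28 and was 4.40-fold higher at stage 38 than at stage 18 (adjusted p = 2.70e-08). kcnq1.L, a slow voltage-gated channel of epithelia and heart, was bright at stage 18, with 9.85, 9.76 and 9.69 on probe set Xl2.42496.1.A1_at, and had 8.42, 8.60 and 8.32 at stage 28 and a mean of 7.86 at stage 38. It fell by 1.90 ± 0.12 on this probe set (adjusted p = 2.61e-12) and by 0.73 on the other (adjusted p = 1.09e-05). kcnj15.L, an inward rectifier, fell at each step, by 1.44 in all (adjusted p = 1.01e-11). kcna4.S, whose channel opens and inactivates fast, rose by 0.79 and 1.49 on its probe sets up to stage 28 and fell by 0.47 and 0.66 after it. The auxiliary subunits kcnab3.L, kcnip1.L and kcne3.S rose by 1.56, 1.29 and 1.40 over the whole span. The probe sets of kcna1.S, kcna2.L, kcna3.S, kcnb2.S and kcnb2-a and the unnamed one passed at no step. All of these but kcna1.S had means under the 25th percentile of all probe sets (5.13), so a change in them may not show.

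Copies and repeated probe sets give a measure of how far a call holds for a gene. Xenopus laevis carries many genes as a pair of copies, .L and .S, and 4 genes had both among the channel and receptor probe sets. grik5-like.1 rose in both copies over the whole span, kcnk1 and kcnk6 passed in the .L copy only (2.99 against -0.08, and -0.72 against -0.14), and cacnb3 passed in neither. The probe sets of kcnk6.S, cacnb3.L and cacnb3.S were dim, with means of 4.91, 3.86 and 3.55, while kcnk6.L had 8.48. Those 3 lay under the 25th percentile of all probe sets (5.13), so a change in them may not show. Of 11 symbols with several probe sets, 8 had the same call on all of them at stage 38 against stage 18, and grik2.S had opposite calls. Those 8 include cacna1a.S and kcnab2.L, of which no probe set passed over this span. From stage 18 to stage 28, kcnab2.L had opposite calls too. It was higher on Xl2.32368.1.A1_at and lower by 0.44 on Xl2.1407.1.S1_at (adjusted p = 0.0293, and up to 0.175 with 1 array left out). Differences between the copies themselves were not tested.

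The next question was whether raising or lowering Notch signaling changed these genes within a stage. Against GFP embryos, 0 of the 73 probe sets passed in any of the 6 comparisons, at a median standard error of 0.13. Of all probe sets, 0%, 0.107% and 0.0123% passed in limma for DBM against GFP at stages 18, 28 and 38, and 1.61%, 0.65% and 0.095% for NICD against GFP. At an unadjusted p below 0.05, 5, 5 and 8 channel and receptor probe sets were counted in DBM embryos (6.85%, 6.85% and 11%, against 4.73%, 6.78% and 1.95% of all probe sets). The same counts in NICD embryos were 5, 1 and 5 (6.85%, 1.37% and 6.85%, against 13.5%, 8.61% and 3.3% of all). With the block, 0, 1 and 1 probe sets passed in DBM embryos (0.236%, 1.94% and 0.11% of all probe sets) and 5, 2 and 1 in NICD embryos (13.2%, 6.19% and 1.21% of all). At stages 18 and 28 the share of channel and receptor probe sets that passed with the block did not exceed that of all probe sets. At stage 38 it did, on 1 probe set in each comparison: 1.37% against 0.11% in DBM embryos and 1.37% against 1.21% in NICD embryos.

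In DBM embryos against GFP embryos, the lead member was the kainate receptor gene grik5-like.1.L on probe set Xl2.1198.1.S2_at at stage 38, with 6.86, 7.11 and 6.96 in DBM embryos and 5.98, 6.39 and 6.07 in GFP embryos. The groups did not overlap, and the difference of 0.83 ± 0.16 had an adjusted p of 0.123 and of 0.0132 with the block. The other probe set of this gene had 4.81, 4.87 and 5.01 in DBM embryos and 4.78, 4.75 and 4.80 in GFP embryos. scn2b.L followed at stage 38, with 7.27, 6.97 and 7.10 in DBM embryos against 6.62, 6.75 and 6.54 in GFP embryos (0.47 ± 0.12, adjusted p = 0.609). At stage 28, kcnab3.L, a beta subunit of voltage-gated potassium channels, differed by 0.53 ± 0.22 (adjusted p = 0.61, and 0.0379 with the block); it was 0.29 without DBM replicate 3 and 0.84 without DBM replicate 2. At stage 18 the largest difference was 0.50, for chrna5.L (adjusted p = 0.997). DBM replicate 1 stood at 7.33 there and the other DBM arrays at 6.34 and 6.17. Without replicate 1 the difference was 0.14. Lower in DBM embryos were, for example, cacna2d3.S at stage 18 (-0.27 ± 0.10, adjusted p = 0.997) and chrne.L at stage 38 (-0.40 ± 0.18, unadjusted p = 0.0404 in limma). Of the 73 differences, 36, 36 and 35 were positive and 37, 37 and 38 negative at stages 18, 28 and 38.

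In NICD embryos against GFP embryos at stage 18, the 5 probe sets that passed with the block were all lower, by 0.70 for kcnk7.L, 0.50 for kcnk1.S, 0.44 for scn3b.L, 0.37 for kcnj16.S and 0.33 for cacna2d3.S, with adjusted p values of 0.00912, 0.00998, 0.00591, 0.0322 and 0.0247 with the block and 0.431, 0.292, 0.466, 0.217 and 0.127 without it. kcnk7.L had 6.80, 5.26 and 5.21 in NICD embryos and 6.87, 6.31 and 6.19 in GFP embryos, so that NICD replicate 1 stood with the GFP arrays; its difference was -1.22 without that array and -0.43 without NICD replicate 3. scn3b.L, whose product modulates sodium channels, had 6.58, 6.98 and 6.97 in NICD embryos and 7.02, 7.39 and 7.43 in GFP embryos, and within each replicate number NICD was the lower. At stage 28, kcnip1.L, a calcium sensor that binds A-type potassium channels, had 5.31, 5.34 and 5.41 in NICD embryos and 5.71, 5.71 and 5.82 in GFP embryos. This difference of -0.39 ± 0.12 had an adjusted p of 0.175, or 0.0411 with the block, and the -0.56 of scn4b.L on probe set Xl2.28569.1.S1_a_at one of 0.585, or 0.0279 with the block, while its other probe set differed by 0.12. At stage 38, kcne3.S, an auxiliary subunit that joins Kcnq1 in epithelia, was the only one of these to be higher: 6.11, 6.07 and 6.53 in NICD embryos, against 5.55, 5.58 and 5.68 in GFP embryos, a difference of 0.63 ± 0.14 (adjusted p = 0.0812, and 0.00319 with the block).

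Set against each other, NICD and DBM embryos differed in a few of these genes, and all that passed were lower in NICD embryos. The count was 1 of 73 at stage 18 (1.37%, where 0.812% of all probe sets passed), 3 at stage 28 (4.11%, against 1.73% of all) and 3 at stage 38 (4.11%, against 0.628% of all). Over all probe sets, 167 passed higher and 98 lower in NICD embryos at stage 18. At stage 28 these numbers were 187 and 377, and at stage 38 they were 52 and 153, so most calls there were lower too. With the block the counts were 5, 6 and 7 (6.85%, 8.22% and 9.59%, against 6.08%, 7.67% and 3.26% of all). Of these, 4, 6 and 5 were lower in NICD embryos. Over all probe sets with the block, 1104, 1645 and 721 were lower and 880, 858 and 343 higher. The median difference was near 0 at each stage, with 36, 30 and 36 of the 73 probe sets positive.

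**Figure D4:**
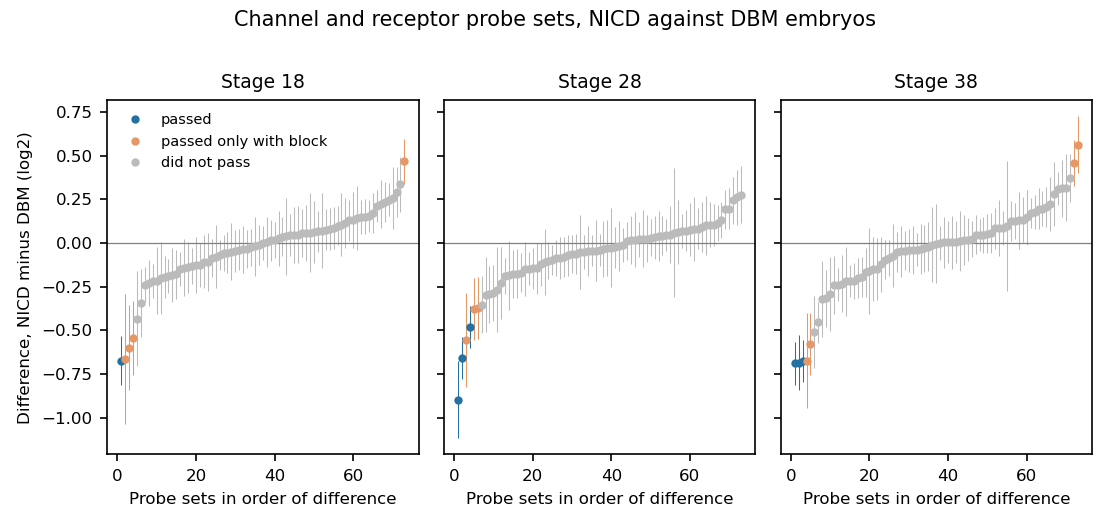
Differences of the 73 channel and receptor probe sets, NICD minus DBM (log2, with standard errors), in order of size at stages 18, 28 and 38; blue points passed, orange points passed only with the replicate block and grey points did not pass. The blue points, 1 at stage 18 and 3 at each later stage, all lie below 0, between -0.48 and -0.90.

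kcnip1.L and cacng5.L passed at 2 stages. kcnip1.L had 5.31, 5.34 and 5.41 in NICD embryos against 5.97, 6.08 and 5.97 in DBM embryos at stage 28, and 5.89, 6.06 and 5.86 against 6.61, 6.71 and 6.56 at stage 38. Every NICD array lay below every DBM array at both stages, and the GFP arrays lay between them. The differences were -0.66 ± 0.12 (adjusted p = 0.00322) and -0.69 ± 0.12 (adjusted p = 0.00553), while at stage 18 the arrays of the constructs overlapped. cacng5.L, named for a family whose members escort AMPA receptors as well as calcium channels, had 6.14, 6.19 and 6.35 in NICD embryos against 6.58, 6.76 and 6.79 in DBM embryos at stage 28, and 6.11, 6.45 and 6.33 against 7.05, 6.94 and 6.92 at stage 38. Its differences were -0.48 ± 0.12 (adjusted p = 0.0361) and -0.67 ± 0.12 (adjusted p = 0.00553). The call at stage 38 was lost without NICD replicate 1 (adjusted p = 0.0669), and that at stage 28 without any of 4 arrays, with adjusted p of 0.0417 to 0.185 over the arrays left out in turn. Neither call held in a fit of the arrays of the 2 compared groups alone. That at stage 28 was also lost with a common array median and with robust fitting with a trend.

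**Figure D5:**
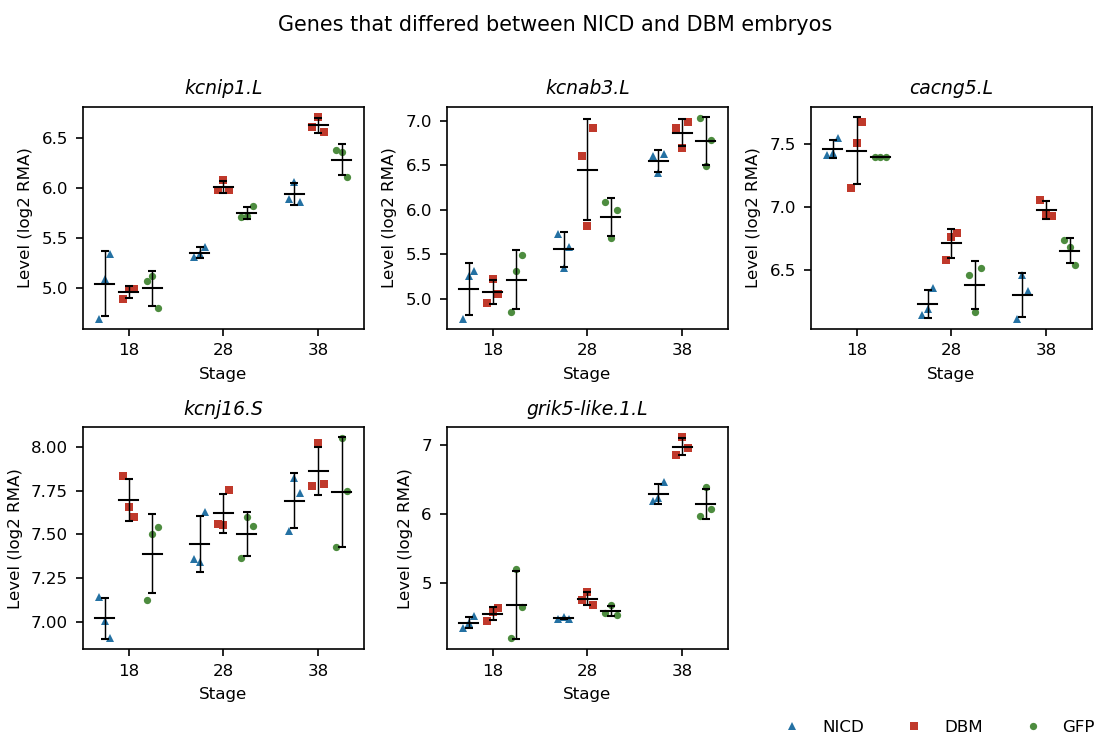
Levels (log2 RMA) of the 5 genes that passed between NICD and DBM embryos, at stages 18, 28 and 38 in NICD, DBM and GFP embryos; points are arrays, black lines the means and bars the SD of 3 arrays. For kcnip1.L at stages 28 and 38 the NICD arrays lie lowest, the GFP arrays between and the DBM arrays highest.

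The other 3 genes passed at 1 stage each. kcnab3.L had 5.73, 5.34 and 5.58 in NICD embryos against 6.61, 5.82 and 6.92 in DBM embryos at stage 28, a difference of -0.90 ± 0.22 (adjusted p = 0.0347). The DBM arrays were spread widely here, and leaving out 1 array at a time gave adjusted p of 0.00152 to 0.277. grik5-like.1.L (Xl2.1198.1.S2_at) had 6.19, 6.23 and 6.46 in NICD embryos against 6.86, 7.11 and 6.96 in DBM embryos at stage 38, a difference of -0.69 ± 0.16 (adjusted p = 0.0472). That call was lost whichever of the 6 arrays was left out (adjusted p up to 0.277). kcnj16.S, an inward rectifier of ion-transporting epithelia and glia, had 7.14, 7.01 and 6.91 in NICD embryos against 7.83, 7.66 and 7.60 in DBM embryos at stage 18, a difference of -0.67 ± 0.14 (adjusted p = 0.0179), and its call was lost without any of 4 arrays (adjusted p up to 0.089). kcnip1.L alone kept its calls whichever array was left out, with adjusted p up to 0.0489 at stage 38, though a fit of the 6 arrays of that comparison alone gave 0.141 there. In such fits, only the call of kcnip1.L at stage 28 held among the calls of these genes.

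With the block, further members passed between NICD and DBM embryos. At stages 18 and 28 their share was near that of all probe sets (6.85% and 8.22%, against 6.08% and 7.67%). At stage 18, kcnk7.L, scn3b.L and kcnk1.S were lower in NICD embryos by 0.66, 0.60 and 0.54 and kcnk5.S on probe set Xl2.7279.1.S1_at was higher by 0.47, with adjusted p of 0.0228, 0.0011, 0.0103 and 0.0174 with the block and of 0.629, 0.392, 0.351 and 0.108 without it. The difference of kcnk7.L was -1.19 without NICD replicate 1 and -0.39 without NICD replicate 3, and the other kcnk5.S probe set differed by -0.05 (adjusted p = 0.993, and 0.837 with the block). At stage 28, grik5-like.1.S, scn4b.L and kcnk9.L were lower by 0.37, 0.55 and 0.38 (adjusted p = 0.0221, 0.0248 and 0.0333 with the block, 0.509, 0.525 and 0.487 without). At stage 38, scn4b.L and kcnk9.L were again lower, by 0.67 and 0.58 (adjusted p = 0.0128 and 0.00351 with the block, 0.593 and 0.24 without). The values of scn4b.L are those of Xl2.28569.1.S1_a_at; on its other, dimmer probe set NICD minus DBM was 0.11 at stage 28 and 0.05 at stage 38 (adjusted p = 0.457 and 0.865 with the block). Both probe sets of kcna4.S were higher there, by 0.46 and 0.56, at adjusted p of 0.0324 and 0.05 (below the threshold before rounding) with the block and 0.183 and 0.177 without. The brighter kcna4.S probe set had 6.70, 6.93 and 6.91 in NICD embryos and 6.15, 6.25 and 6.46 in DBM embryos.

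Markers of neurons and of ionocytes differed between constructs too, though not in every comparison. At stage 28 the neuron markers averaged 8.44 to 8.61 on the NICD arrays, 9.24 to 9.45 on the DBM arrays and 8.78 to 8.95 on the GFP arrays; 9 of their 14 probe sets were lower in NICD than in DBM embryos, by a median of 0.98 over all 14, and 4 were higher in DBM than in GFP embryos (11 and 5 with the block). Between NICD and GFP embryos at stage 28, 0 passed, 8 were lower at an unadjusted p below 0.05 and 5 were lower with the block, as were 3 at stage 18. Between NICD and DBM embryos at stage 18, 0 passed, and with the block 1 was higher and 1 lower, where 6.08% of all probe sets passed. Between DBM and GFP embryos at stage 18, 0 passed with or without the block, and 9 of the 14 differences were negative. At stage 38, 3 of the 14 were lower in NICD than in DBM embryos (4 with the block), and the ranges were 9.82 to 9.89 in NICD embryos and 10.06 to 10.27 in DBM embryos. Of all probe sets, 7.67% and 3.26% passed with the block for NICD against DBM at stages 28 and 38. The shares were 13.2% and 6.19% for NICD against GFP at stages 18 and 28, and 1.94% for DBM against GFP at stage 28. Without the block, 1.73% and 0.628% of all passed for NICD against DBM at stages 28 and 38. Those shares were 1.61% and 0.65% for NICD against GFP at stages 18 and 28, and 0.107% for DBM against GFP at stage 28. Of the synaptic list, slc32a1.S, slc17a7.S and gphn.L were lower in NICD than in DBM embryos at stage 28, by 1.21, 0.94 and 0.55 (3 of 14 probe sets, 4 with the block), and of the other channels and receptors gabbr2.S was, by 0.63 (adjusted p = 0.0106). The part of these markers in the differences of kcnip1.L, kcnab3.L, cacng5.L and grik5-like.1.L was not tested.

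The ionocyte markers (7 probe sets of 5 genes, foxi1.L and proton pump subunits among them) averaged 8.25 to 8.55 on the NICD arrays of stage 18, 9.02 to 9.10 on the DBM arrays and 8.91 to 9.45 on the GFP arrays. Of the 7, 5 were lower in NICD than in GFP embryos at stage 18 and 1 at stage 28 (7 and 3 with the block). Between DBM and GFP embryos 0 passed at any stage, and with the block 1 was higher at stage 28. The differences of DBM from GFP embryos were negative for 6 of the 7 at stage 18 and positive for all 7 at stages 28 and 38. Against DBM embryos, 1, 4 and 0 were lower in NICD embryos at stages 18, 28 and 38, or 6, 7 and 3 with the block, and 6, 7 and 5 at an unadjusted p below 0.05. Their part in the difference of kcnj16.S and of the 5 probe sets lower with the block was not tested. Skeletal muscle markers had 0 of 16 probe sets past the threshold in limma in any comparison of constructs (0 to 7 with an unadjusted p below 0.05). With the block, 2 of the 16 were higher in DBM than in GFP embryos at stage 28, 2 were lower in NICD than in GFP embryos at stage 18 and 2 higher at stage 28, and 1 was lower in NICD than in DBM embryos at stage 18. Of all probe sets, 13.2%, 6.19% and 1.21% passed with the block for NICD against GFP at stages 18, 28 and 38. The shares were 6.08%, 7.67% and 3.26% for NICD against DBM, and 1.94% for DBM against GFP at stage 28. Without the block, 1.61%, 0.65% and 0.095% of all passed for NICD against GFP at these stages. For NICD against DBM they were 0.812%, 1.73% and 0.628%, and for DBM against GFP at stage 28 0.107%. Heart markers (9 probe sets) had 0 calls between constructs as well, with 0 to 2 at an unadjusted p below 0.05, while with the block 1 was lower in NICD than in GFP embryos at stage 28 and 1 lower in NICD than in DBM embryos at stage 38. Of 6 pronephros probe sets, 1 was lower in NICD embryos than in either other construct at stage 18, and with the block at stage 28 as well. Of 7 red blood cell probe sets, 1 was lower in NICD than in GFP embryos at stage 28, and 2 and 1 were lower in NICD than in DBM embryos at stages 28 and 38; with the block these counts were 3, 3 and 4, and against GFP embryos 1 more was higher in NICD embryos at stage 18 and 1 lower at stage 38.

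Whether the effect of a construct against GFP embryos differed between stages was tested directly as an interaction. None of the 73 passed in the 6 tests, main or blocked. For the DBM effect, stage 28 against 18, 38 against 28 and 38 against 18, 0.0245%, 0% and 0.00613% of all probe sets passed in limma, and at an unadjusted p below 0.05 there were 3, 2 and 6 channel and receptor probe sets (4.11%, 2.74% and 8.22%, against 7.67%, 3.09% and 2.96% of all). For the NICD effect the shares that passed were 0.0981%, 0.00306% and 0.242%, and the counts at an unadjusted p below 0.05 were 3, 2 and 7 (4.11%, 2.74% and 9.59%, against 7.41%, 3.14% and 7.61% of all). With the block, the shares of all probe sets that passed were 2.61%, 0.0214% and 0.0214% for the DBM effect. For the NICD effect they were 3.18%, 0.346% and 3.95%. The lowest unadjusted p was that of grik5-like.1.L, whose DBM effect was larger by 0.97 ± 0.22 at stage 38 than at stage 18 (adjusted p = 0.921, and 0.0894 with the block), and the lowest adjusted p with the block over all 6 tests was 0.0531. A change against GFP embryos seen at 1 stage and not at another is thus not shown to differ between stages for any of these genes. Whether the difference between NICD and DBM embryos changed between stages was not tested.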

How the data were processed

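The authors hybridised RNA to 27 Affymetrix Xenopus laevis 2.0 arrays and summarized the scans by RMA; the deposited values are log2 and were used unchanged. A further deposited table repeats 27 of these columns and holds 6 columns of the authors' adjusted p-values, which were not used. Symbols came from the platform table; of 72 members with a single symbol, 71 had an identifier in the RefSeq gene table (assembly 10.1), used for names alone. One limma model (limma 3.58.1, statmod 1.5.0, R 4.3.3) with 9 groups was fitted, with contrasts per stage, between GFP stages and as interactions, without a block.

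Same-numbered arrays of a stage deviated from their group means together in all 27 pairs (correlation 0.454 to 0.811), so stage by replicate number was also fitted as a fixed block, or as a random block (correlation 0.463) between stages. The pairing rests on this check, since the labels give only numbers. The fit was tested on simulated data.

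The members, the gene lists and the rule for named genes were chosen with earlier results of these data known. That rule took members that passed between constructs and the 4 of lowest p in each direction against GFP. It also took the 8 largest differences per direction between stages and the leading member of a family. The text describes only part of these, and not evenly by direction. Other members in the text, such as those that passed only with the block or that complete a family, were named after their values were seen. Marker lists covered neurons, skeletal muscle, heart, ionocytes, pronephros and red blood cells. Other settings were single comparisons' arrays, each array left out in turn, array weights, a common array median, a further quantile normalization, a filter on dim probe sets, robust fitting with a trend and Benjamini-Yekutieli adjustment. With 3 arrays per group, their number limits the precision.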

Additional observations from a re-analysis of the deposited data

How the results depend on the processing

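With the replicate block, the number of channel and receptor probe sets that passed was 0, 1 and 1 at stages 18, 28 and 38 for DBM against GFP, 5, 2 and 1 for NICD against GFP, and 5, 6 and 7 for NICD against DBM, where 0, 0 and 0, 0, 0 and 0, and 1, 3 and 3 passed in limma without it. With the arrays of the 2 groups alone, and also with Benjamini-Yekutieli adjustment, NICD against DBM gave 0, 1 and 0. Array weights gave 1 for DBM against GFP at stage 38 and 4 for NICD against GFP at stage 18. The cause of these shifts was not tested. Leaving out 1 array at a time gave 0 to 0, 0 to 1 (1 without GFP replicate 3) and 0 to 0 for DBM against GFP, 0 to 2 (2 without GFP replicate 1), 0 to 0 and 0 to 0 for NICD against GFP, and 0 to 1, 1 to 2 and 1 to 2 for NICD against DBM. The last counts were 0 at stage 18 without DBM replicate 1 or 2 or NICD replicate 2 or 3, 1 at stage 28 without DBM replicate 3 or NICD replicate 2, and 1 at stage 38 without NICD replicate 1. Between GFP stages they were 32 to 35, 29 to 34 and 47 to 50, and 36, 33 and 47 with the random block, against 37, 33 and 51. The random block ended 7 calls, of kcnab2.L and kcnq1.L at stage 28 against 18, kcnj1.L at stage 38 against 28, and grik2.S, scn1a.S, kcnmb3.S and kcna4.S at stage 38 against 18 (1 probe set each), and added kcne1.L and kcnab2.L. No difference of a named probe set changed sign where it was called. Of their values under the alternatives, 660 between constructs stayed on their side of the threshold, 28 lost and 14 gained a call. All 28 losses fell on the 1, 3 and 3 calls between NICD and DBM embryos. Most of the 660 were differences that passed in neither fit, so they do not measure how far those calls hold. Between GFP stages 667 stayed and 25 lost a call. Dim probe sets limit what small differences can show.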
